A study of Mus musculus with 20 samples.

Results

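The complement regulators described here are 7 genes, Cd55, Cr1l, Cd59a, Cd59b, Clu, Vtn and Serping1. They were taken as every probe set of the array that its annotation assigns to one of these symbols, which gave 10 of 12488 probe sets. Of these, 9 were annotated to 1 gene each, with 2 apiece for Cr1l and Clu, and the remaining probe set was annotated to both Cd55 and its neighbour Cd55b. All 10 passed the filter on dim signal (a mean above 68.8 in at least 1 group), as did 7121 probe sets in all. Of the 10, 3 passed it through 1 group alone, Cd55 and its shared probe set through C57BL/6 quadriceps and Vtn through C57BL/6 left ventricle. Being tested thus depended on the group where each was high, and their values with no filter are given beside the strain differences. Their calls in the interaction and in the C57BL/6 tissue comparison also held with no filter. The mice were female and 32 to 34 weeks old, and total RNA of 5 of them per group, each on its own Affymetrix MG_U74Av2 array, was measured. The groups were the quadriceps and the left ventricle of C57BL/6 mice, the controls, and both tissues of SJL/J mice. The latter strain has a spontaneous muscular dystrophy, in which an in-frame deletion of 171 bp takes 57 amino acids out of dysferlin, a protein of muscle membrane repair. Every cell of an SJL/J mouse carries the deletion, and the 2 strains also differ across the rest of the genome, so that the effect of the deletion cannot be told apart from that of strain. The labels name the right quadriceps for C57BL/6 and give no side for SJL/J.

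Complement is a cascade of plasma proteases that tags cells with fragments of its central component and ends in a pore, the membrane attack complex. Host cells restrain it at successive steps. Cd55 (decay-accelerating factor) and Cr1l (Crry, found in rodents) act on the cell surface against the convertases that drive the cascade, Cd59 proteins block assembly of the pore, and Clu and Vtn bind pore components in the fluid phase. Serping1 encodes the C1 inhibitor, which inactivates the proteases that start the classical pathway. Deposits of the membrane attack complex on muscle fibres are a known feature of dysferlin-deficient muscle, and the study is known for asking whether Cd55 is lower there.

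Several arrays stood apart, and the results that rest on them are given with and without them. Hybridisation times in the array records fell into 5 groups, called fluidics runs here. Run 1 held C57BL/6 quadriceps arrays 1, 2, 3 and 5, the only arrays of chip lot 1, and array 4 of that group was processed in run 5 beside SJL/J quadriceps arrays 2 to 4. Array 4 also stood apart in markers, with a sum of 260977.1 for 11 limb fibre markers and 27312.4 for 10 heart muscle markers, against 76331.8 to 120755.5 and 6657.6 to 15997.5 on the other 4 arrays of its group. Run 3 held SJL/J quadriceps arrays 1 and 5, SJL/J left ventricle array 1 and C57BL/6 left ventricle array 5. SJL/J quadriceps array 1 was also the only array with a wash protocol unlike that of the rest. The heart muscle markers summed to 64682.1 and 74373.3 on SJL/J quadriceps arrays 1 and 5, against 11161.0 to 25277.2 on the other 3 arrays of that group and 59081.8 to 85967.0 in left ventricle. In the opposite direction, the limb fibre markers summed to 25940.7 and 40436.2 on the 2 left ventricle arrays of run 3 and to 1824.1 to 6522.5 on the other left ventricle arrays. Heart genes were also raised on SJL/J quadriceps array 3 (Myh6 4623.2, Ryr2 271.9) and C57BL/6 quadriceps array 2 (Myh6 3392.5, Ryr2 139.5). On SJL/J quadriceps arrays 2 and 4, Myh6 read 82.3 and 225.2 and Ryr2 read 2.6 and 10.1. Fits without run 3 are therefore not free of heart signal in quadriceps. An index of 24 probe sets that separate the strains, scaled to 0 for C57BL/6 and 1 for SJL/J, read 0.441 on SJL/J quadriceps array 5 and 0.941 to 1.16 on the other SJL/J arrays. Most of those other arrays helped to define the index and were bound to read near 1. SJL/J quadriceps array 1 and left ventricle array 1, which did not, read 0.971 and 0.990. The free-text descriptions of the SJL/J quadriceps samples name the left ventricle, while their titles and sources name quadriceps. Their limb fibre markers summed to 72404.2 to 140653.9, so that the group is called quadriceps here. The array carries 0 probe sets for Dysf, and the genotype could therefore not be checked.

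In quadriceps, the Cd55 transcript was lower in SJL/J than in C57BL/6, Cd59a was higher, and the other regulators did not pass the test. Of the 10 probe sets, 1 rose and 2 fell, while 11.5% of all tested probe sets were called, 6.12% higher and 5.39% lower (limma, Benjamini-Hochberg adjusted p under 0.05). The median log2 difference of the 10 was 0.48, and that of all tested probe sets was 0.08. The plot of signal by array shows all 20 values of each probe set.

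**Figure D1:**
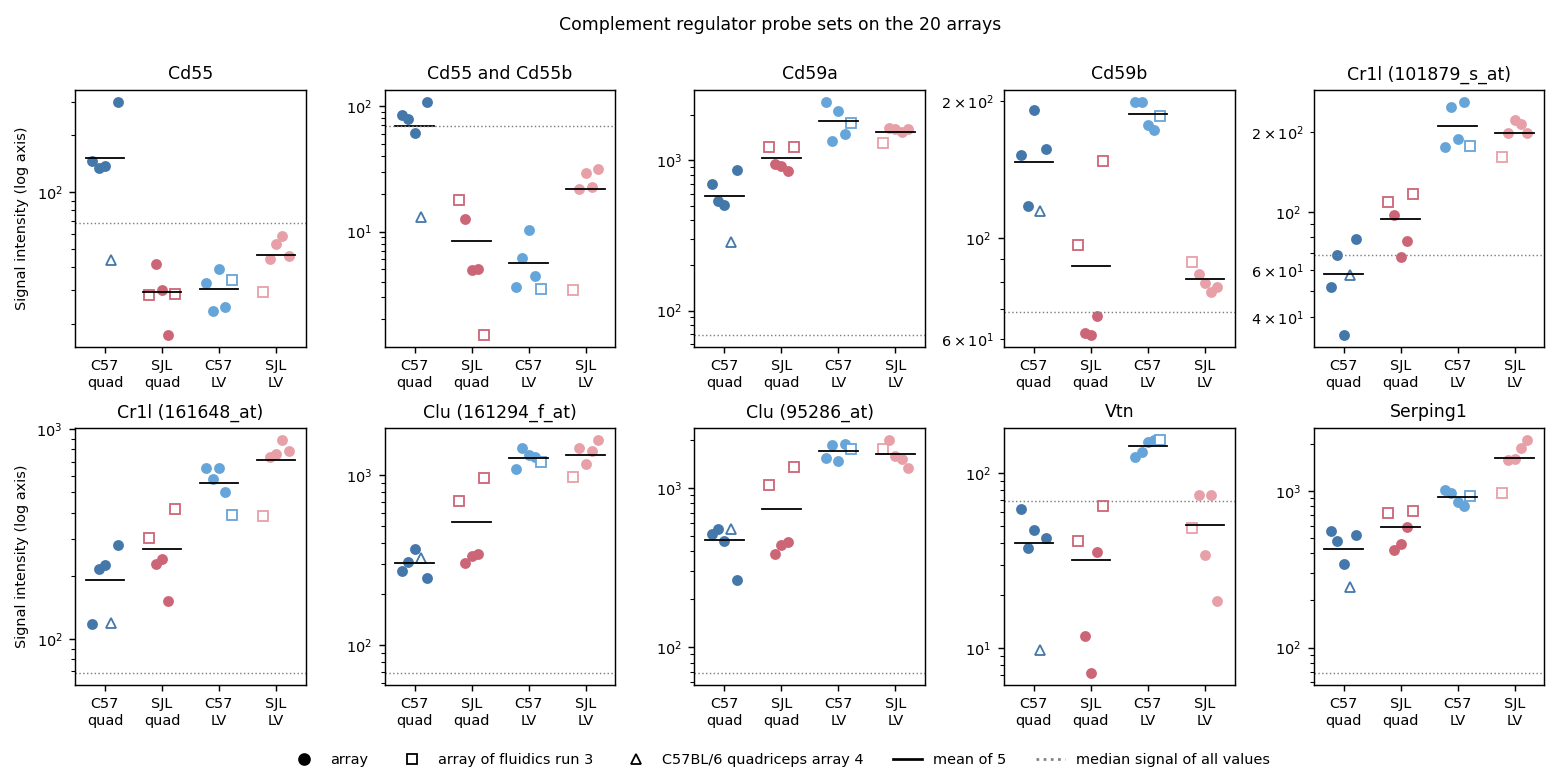
Signal intensity (log axis, different in each panel) of the 10 complement regulator probe sets on the 20 arrays, by group, with C57 for C57BL/6, SJL for SJL/J, quad for quadriceps and LV for left ventricle. Points are single arrays, bars are means of 5, squares are arrays of fluidics run 3, the triangle is C57BL/6 quadriceps array 4, and the dotted line is the median signal of 68.8. Cd55 stands above that line on 4 of the 5 C57BL/6 quadriceps arrays and on no other array.

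Cd55 holds the convertases of the cascade in check by speeding their decay. Its own probe set (103617_at) read 145.1, 134.2, 137.1, 43.7 and 301.0 on C57BL/6 quadriceps arrays 1 to 5. On SJL/J quadriceps arrays 1 to 5 it read 28.3, 41.6, 30.1, 17.4 and 28.9. Every C57BL/6 array lay above every SJL/J array, but array 4 of C57BL/6 exceeded the highest SJL/J value by only a small margin. The log2 difference was -2.19 ± 0.44 (SE, n = 5 per group), a 4.56-fold lower signal in SJL/J, with a limma adjusted p of 0.00803 (0.0210 with no filter). Groups without overlap were found for this 1 member and for 11.4% of all tested probe sets. In RNA from whole tissue, fewer cells of a type and less RNA per cell cannot be told apart.

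The 4 high Cd55 values were the 4 arrays of run 1 and chip lot 1. Within run 5, the single C57BL/6 array read 43.7 and the 3 SJL/J arrays 17.4 to 41.6, a log2 difference of -0.65. With run as a block, a fit in which the strain difference rests on that single C57BL/6 array, Cd55 had a log2 difference of -0.65 and a limma adjusted p of 0.458. With chip lot as a block the values were -0.63 and 0.465. The strain difference in Cd55 and the difference between run 1 and the later runs thus cannot be told apart for 4 of the 5 control arrays, and array 4, the control outside run 1, had the lowest correlation of any array with its own group (0.898). The ratio of 5' to 3' Gapdh signal, which falls as RNA degrades, moved with the same arrays, at 0.781 to 1.06 in run 1, 0.487 on C57BL/6 array 4 and 0.268 to 0.663 in SJL/J quadriceps. With this ratio as a covariate, Cd55 differed by -1.38 (adjusted p 0.154, limma). Without run 3 the difference was -2.20 (adjusted p 0.0290, limma), close to that of all arrays.

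The probe set annotated to both Cd55 and Cd55b (92198_s_at) followed the same pattern. Cd55b is the neighbouring copy of Cd55 in the mouse, best known from testis, and the signal of this probe set cannot be assigned to either gene. It read 85.2, 79.1, 61.0, 13.0 and 108.0 on C57BL/6 quadriceps arrays 1 to 5. The SJL/J quadriceps values were 17.9, 12.7, 4.9, 5.0 and 1.5. Array 4 of C57BL/6 lay inside the SJL/J range and the other 4 lay above it. The log2 difference was -3.01 ± 0.69 (SE, n = 5 per group, adjusted p 0.0163, limma, and 0.0283 with no filter), and several SJL/J values were close to the floor of 3.1 applied to the data, so that the size of the fold is poorly determined. Within run 5 the difference was -0.94, and with run as a block its adjusted p was 0.538. The call was also lost without C57BL/6 array 2 (adjusted p 0.0507) or array 5 (an adjusted p just above the threshold).

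Because the array reads these neighbouring copies together, their promoters are shown side by side. Both lie on the minus strand of chromosome 1 with 0 annotated genes between them, Cd55 at chr1:130462695-130462994 and Cd55b at chr1:130422994-130423293 (RefSeq, GRCm38.p6, 250 bases before to 50 after the start of 1 transcript). That start lies 2265 bases inside the RefSeq gene record of Cd55 and 54 bases inside that of Cd55b, so that both gene records begin further upstream, and the positions below count from the start of each window's transcript. The sequences are written 5′ to 3′ along each gene, with 3 motifs in capitals: a GC box (GGGCGG, here on the opposite strand and so written CCGCCC), an E-box (CAGCTG) and a TATA box (TATAAA), each searched on both strands, with no overlap among the matches.
Cd55: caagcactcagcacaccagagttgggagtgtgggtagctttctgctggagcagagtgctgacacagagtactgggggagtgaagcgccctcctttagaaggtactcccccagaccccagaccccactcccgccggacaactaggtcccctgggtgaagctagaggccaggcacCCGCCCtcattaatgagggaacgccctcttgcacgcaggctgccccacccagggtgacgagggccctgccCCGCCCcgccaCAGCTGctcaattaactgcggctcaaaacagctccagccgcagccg
Cd55b: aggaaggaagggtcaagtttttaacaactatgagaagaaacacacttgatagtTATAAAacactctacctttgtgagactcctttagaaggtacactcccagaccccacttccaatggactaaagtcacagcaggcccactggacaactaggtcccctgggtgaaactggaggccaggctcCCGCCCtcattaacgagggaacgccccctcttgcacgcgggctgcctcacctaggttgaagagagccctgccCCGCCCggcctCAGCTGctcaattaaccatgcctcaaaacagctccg
The windows aligned over 277 bases, of which 213 were identical (76.9%). A GC box lay 77 and 7 bases before that start in Cd55, and at -69 and 3 bases from it in Cd55b. The E-box stood just after both starts, at 4 and 14 bases. TATAAA was found in Cd55b alone, at -197. Among 27025 promoters of this length, 35.9% held the GC box, 16.1% the E-box and 14.2% TATAAA. These matches describe the letters of the windows and do not show binding.

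Cr1l, the other convertase regulator of the cell surface, did not pass the test in quadriceps with either probe set. 101879_s_at read 34.2 to 78.8 in C57BL/6 (median 57.9) and 67.6 to 116.7 in SJL/J (median 97.3), a log2 difference of 0.71 ± 0.27 with a limma adjusted p of 0.112. 161648_at gave 0.49 ± 0.31 (adjusted p 0.320, limma). The 2 highest SJL/J values of both probe sets were arrays 1 and 5, those with the highest heart marker sums of the group. Without run 3 the differences were 0.51 and 0.17.

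Of the 2 Cd59 genes, which encode inhibitors of the membrane attack complex, Cd59a passed the test in quadriceps and Cd59b did not. Cd59a, the widely expressed copy in the mouse, read 693.0, 538.8, 501.8, 286.7 and 866.7 on C57BL/6 quadriceps arrays 1 to 5. The SJL/J values were 1228.8, 937.8, 922.8, 842.6 and 1226.9. Only C57BL/6 array 5 reached the SJL/J range. The log2 difference was 0.91 ± 0.26 (adjusted p 0.0383, limma), a 1.88-fold higher signal in SJL/J. This call did not hold up well. It was lost in 7 of the 10 fits that left out 1 array and without run 3 (0.73, adjusted p 0.156), while with run as a block the difference was 1.65 (adjusted p 0.00294). SJL/J arrays 1 and 5, with the highest heart marker sums of their group, gave the 2 highest SJL/J values.

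Cd59b, a copy best known from testis, read 152.1, 117.9, 191.6, 114.8 and 157.4 in C57BL/6 quadriceps. In SJL/J quadriceps it read 96.4, 61.8, 61.2, 67.4 and 147.6. SJL/J array 5, the array with an intermediate strain index, lay inside the C57BL/6 range, and the other 4 lay below all C57BL/6 arrays. SJL/J differed by a log2 value of -0.82 ± 0.27, which missed the threshold (adjusted p 0.0685, limma). Without run 3 it was -1.18 (adjusted p 0.0125, limma), and within run 5 the C57BL/6 array read 114.8 against 61.2 to 67.4. The mouse genes Cd59a and Cd59b are close relatives, and how far each probe set reads the other's transcript was not tested.

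Of the secreted regulators, none passed the test in quadriceps. Clu, a secreted chaperone that binds terminal complement components, was read by 95286_at at 512.3, 552.1, 460.9, 550.0 and 263.9 in C57BL/6. In SJL/J the values were 1037.3, 385.3, 439.1, 455.2 and 1342.8. Arrays 1 and 5 of SJL/J were the high ones, and the other 3 lay within the C57BL/6 range. The log2 difference of 0.50 ± 0.35 (adjusted p 0.378, limma) became -0.09 without run 3. The second Clu probe set (161294_f_at, of a type shared within gene families) went from 0.65 to 0.11. Summed signal of 8 endothelial markers moved with the same arrays, at 2535.1 and 3243.8 on SJL/J arrays 1 and 5, 1227.9 to 1355.8 on arrays 2 to 4 and 1454.5 to 1677.0 in C57BL/6. How much of the endothelial signal came with heart tissue was not tested.

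Vtn, vitronectin, a plasma and matrix glycoprotein that also keeps the pore from inserting, was dim in quadriceps, at 9.7 to 62.6 in C57BL/6 (median 42.3) and 7.2 to 64.4 in SJL/J (median 35.6). With all arrays the ranges coincided, and the log2 difference was -0.51 ± 0.67 (adjusted p 0.661, limma). The highest SJL/J values, 41.0 and 64.4, were those of arrays 1 and 5, which had the highest heart marker sums of the group. Without run 3, SJL/J read 7.2 to 35.6, and the difference was -1.24 (adjusted p 0.302, limma). Also without C57BL/6 array 4, a setting chosen after seeing the data, it was -1.69 (adjusted p 0.0464, limma). Serping1 read 244.1 to 551.0 in C57BL/6 (median 479.7) and 422.4 to 743.9 in SJL/J (median 585.9). These ranges overlapped, and the difference of 0.48 ± 0.25 missed the threshold (adjusted p 0.233, limma). The highest SJL/J values, 719.0 and 743.9, were those of arrays 1 and 5, which had the highest heart marker sums of the group. Without run 3 the Serping1 difference was 0.24 (adjusted p 0.389, limma). With run as a block it was 0.99, a value that rests on C57BL/6 array 4, the lowest of its group (244.1).

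**Figure D2:**
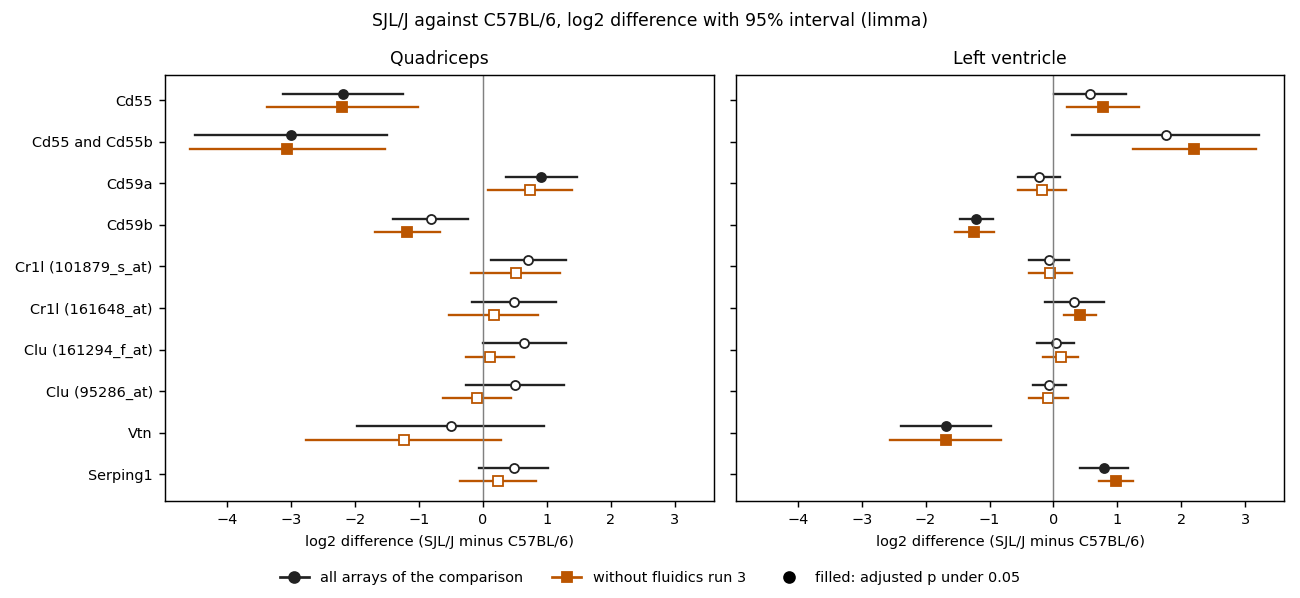
SJL/J minus C57BL/6 log2 difference of each complement regulator probe set in quadriceps and in left ventricle, with 95% intervals from limma. Circles use all arrays and squares leave out fluidics run 3, with filled symbols for an adjusted p under 0.05. Cd55 is at -2.19 in quadriceps and 0.58 in left ventricle, and Cd59b lies below 0 in both tissues.

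In left ventricle, Serping1 was higher in SJL/J, and Cd59b and Vtn were lower. Of the 10 probe sets, 1 rose and 2 fell, in a comparison in which 32.1% of all tested probe sets were called, so that the share among the regulators was near the background. The median of the 10 was -0.01 and that of all tested probe sets 0.04. Groups without overlap were found for 2 members and for 21.7% of all tested probe sets. Neither strain group shared a run with the other apart from the 2 arrays of run 3, and the Gapdh ratios did not overlap, at 0.697 to 0.866 in C57BL/6 and 0.101 to 0.470 in SJL/J. With run as a block, or with the Gapdh ratio as a covariate, 0 of the 10 members were called, and over all tested probe sets 62 and 42 were.

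Cd59b read 199.5, 199.0, 177.8, 173.3 and 186.1 on C57BL/6 left ventricle arrays 1 to 5. On SJL/J left ventricle arrays it read 88.6, 83.4, 79.6, 76.0 and 78.1. Both groups were tight and far apart. SJL/J differed by -1.21 ± 0.12 (adjusted p 1.39e-05, limma), a 2.31-fold lower signal in SJL/J. Within run 3 the pair of arrays read 186.1 and 88.6, a log2 difference of -1.07, and with run as a block the adjusted p was 0.119 at that difference. With the Gapdh ratio as a covariate, Cd59b differed by -1.15 (adjusted p 0.160, limma). Cd59a had ranges of 1342.4 to 2449.8 in C57BL/6 and 1302.7 to 1635.2 in SJL/J, and its difference of -0.23 ± 0.15 did not pass (adjusted p 0.277, limma).

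Vtn read 123.4, 132.7, 150.2, 154.3 and 154.8 in C57BL/6 left ventricle. In SJL/J left ventricle it read 48.6, 74.7, 34.0, 75.0 and 18.6. All C57BL/6 arrays lay above all SJL/J arrays, which were the more scattered. On the log2 scale SJL/J differed by -1.68 ± 0.33 (adjusted p 0.00213, limma, and 0.00974 with no filter), a 3.21-fold lower signal. The pair in run 3 read 154.8 and 48.6, a log2 difference of -1.67, whereas with the Gapdh ratio as a covariate the difference was -0.14 (adjusted p 0.967, limma). Vtn is made mainly in liver, and the summed signal of 4 liver and plasma protein markers was 40.5 to 90.5 in C57BL/6 and 39.8 to 87.1 in SJL/J left ventricle, with 0 of the 4 above the median signal in either group's mean.

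Serping1 read 1009.3, 962.1, 846.2, 803.4 and 920.8 in C57BL/6 left ventricle. In SJL/J left ventricle it read 964.3, 1570.8, 1598.4, 1876.3 and 2117.4. Array 1 of SJL/J lay within the C57BL/6 range, and the other 4, all of run 4, lay above it. On the log2 scale the difference was 0.80 ± 0.17 (adjusted p 0.00416, limma), a 1.74-fold higher signal in SJL/J. Without run 3 the difference was 0.98 (adjusted p 0.000185, limma). Within run 3 the 2 arrays read 920.8 and 964.3, a log2 difference of 0.07. Summed signal of 8 fibroblast markers behaved alike, at 8924.5 to 10066.7 in C57BL/6, 9027.4 on SJL/J array 1 and 13103.0 to 14398.1 on SJL/J arrays 2 to 5. The 10 heart muscle markers did the same, at 59081.8 to 67746.4 in C57BL/6 and 66993.3 on SJL/J array 1. On SJL/J arrays 2 to 5 they summed to 72883.4 to 85967.0. The pattern was thus not particular to fibroblast markers, while the endothelial sums of SJL/J arrays 2 to 5 overlapped those of C57BL/6. The part of these transcripts, of the run or of the Gapdh ratio in the Serping1 difference was not tested apart. With the ratio as a covariate the difference was -0.46 (adjusted p 0.538, limma).

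Cd55 was dim in both left ventricle groups, at 33.0, 23.2, 38.8, 24.6 and 33.9 in C57BL/6 arrays 1 to 5. In SJL/J it read 29.4, 44.0, 53.1, 58.3 and 45.6. Array 1 of SJL/J, from run 3, was inside the C57BL/6 range and the other 4 were above it. The difference of 0.58 ± 0.26 did not pass (adjusted p 0.107, limma), and without run 3 it was 0.77 (adjusted p 0.0373, limma). The probe set shared with Cd55b read 3.5 to 10.2 in C57BL/6 and 22.0 to 31.5 on SJL/J arrays 2 to 5, with 3.4 on SJL/J array 1, a log2 difference of 1.76 ± 0.68 (adjusted p 0.0642, limma) that became 2.21 without run 3 (adjusted p 0.00312). Cr1l and Clu did not pass the test with any of their probe sets, with log2 differences from -0.07 to 0.33. Without run 3, Cr1l 161648_at did, at 0.41 (adjusted p 0.0168, limma).

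The strain difference itself differed between the tissues for Cd55, for the probe set shared with Cd55b and for Cd59a. Of the 10 probe sets, 1 had a higher and 2 a lower strain difference in quadriceps than in left ventricle, and 14.5% of all tested probe sets were called in this interaction, 8.37% higher and 6.16% lower. The median of the 10 was 0.47, against 0.08 for all tested probe sets. For Cd55 the strain difference in quadriceps minus that in left ventricle was -2.77 ± 0.53 (log2, n = 5 arrays in each of 4 groups, adjusted p 0.00179, limma). For the shared probe set it was -4.76 ± 1.06 (adjusted p 0.00544), and for Cd59a 1.14 ± 0.32 (adjusted p 0.0207). Without run 3 the Cd55 values were -2.97 and 0.00365, and Cd59a no longer passed (0.90, adjusted p 0.0978). With run as a block, the interaction rests on C57BL/6 quadriceps array 4 and on the left ventricle pair of run 3. Cd55 was then at -0.44 and the shared probe set at -0.90, neither of them called, while Cd59a was at 2.09. Cd59b, lower in SJL/J left ventricle, had an interaction of 0.39 ± 0.29 with a 95% interval from -0.22 to 0.99 (adjusted p 0.398, limma), so that a different strain effect in the 2 tissues was not detected for it.

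Between tissues, most regulators were higher in left ventricle than in quadriceps of C57BL/6 mice, and Cd55 was lower. Of the 10 probe sets, 7 were higher and 2 lower, in a comparison in which 48.4% of all tested probe sets were called, 29.0% higher and 19.4% lower. That was 2066 higher of 3450 called, a split that became 1448 of 3335 when each array was centred on its median. Their median log2 difference was 1.66, and that of all tested probe sets 0.13. Groups without overlap were found for 9 of the 10 and for 35.6% of all tested probe sets. No fluidics run held both C57BL/6 tissues, so that run and tissue cannot be told apart in this comparison. A fit with run as a random block again called 7 higher and 2 lower. Such a fit allows for likeness of arrays within a run and cannot separate run from tissue. Markers of other cell types moved with the tissue. In C57BL/6, the 8 endothelial markers summed to 4435.0 to 6320.5 in left ventricle and 1454.5 to 1677.0 in quadriceps, the 8 fibroblast markers to 8924.5 to 10066.7 and 3045.4 to 7091.8, and the 11 macrophage and monocyte markers to 1952.4 to 2756.2 and 918.1 to 1385.2. Their part in the tissue differences was not tested.

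Clu was 3.74-fold higher in C57BL/6 left ventricle, with 1529.0, 1852.1, 1473.2, 1896.0 and 1746.5 on arrays 1 to 5 for 95286_at against at most 552.1 in quadriceps (log2 1.90 ± 0.19, adjusted p 7.11e-06, limma). Its second probe set gave 2.06 ± 0.13. Both probe sets of Cr1l were higher as well, by 1.89 ± 0.23 and 1.60 ± 0.25, and the C57BL/6 left ventricle values of 101879_s_at, 175.9 to 260.7, all exceeded the quadriceps range of 34.2 to 78.8. Cd59a was 3.31-fold higher (1.73 ± 0.27, adjusted p 0.000189, limma), at 1342.4 to 2449.8 against 286.7 to 866.7. Vtn differed by 2.07 ± 0.41 and Serping1 by 1.14 ± 0.21, each with groups that did not overlap. Cd59b was the member that did not pass (0.37 ± 0.17, adjusted p 0.0780, limma).

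Cd55 ran the other way, at 43.7 to 301.0 in C57BL/6 quadriceps and 23.2 to 38.8 in left ventricle, a log2 difference of -2.09 ± 0.41 (adjusted p 0.00110, limma). The shared probe set fell by 3.47 ± 0.59. With chip lot as a block, Cd55 was at -0.54 (adjusted p 0.364, limma) and the shared probe set at -1.35 (adjusted p 0.148), since C57BL/6 array 4 was then the only quadriceps array of the lot used for left ventricle. Over the 4 groups the mean Cd55 signal was 152 ± 92.9 (SD, n = 5) in C57BL/6 quadriceps, 46.1 ± 11.0 in SJL/J left ventricle, 30.7 ± 6.61 in C57BL/6 left ventricle and 29.3 ± 8.58 in SJL/J quadriceps. The strain comparison in left ventricle and the tissue comparison in SJL/J, both among the 3 lower groups, did not pass the test for Cd55, and C57BL/6 left ventricle was not tested against SJL/J quadriceps.

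In SJL/J mice, 6 of the 10 probe sets were higher in left ventricle and 0 lower, while 35.4% of all tested probe sets were called, 19.9% higher and 15.5% lower. The median of the 10 was 1.20, against 0.05 for all tested probe sets, and 4 of the 10 had groups that did not overlap, against 21.3% of all. Both tissue comparisons use the quadriceps and left ventricle arrays of their own strain and share no array. Serping1 differed by 1.46 ± 0.23 (adjusted p 0.00105, limma), Cd59a by 0.59 ± 0.14 (adjusted p 0.00683), Cr1l by 1.11 ± 0.18 and 1.44 ± 0.28, and Clu by 1.45 ± 0.31 and 1.34 ± 0.32. Cd55 did not pass, at 0.67 ± 0.32 (adjusted p 0.121), nor did the shared probe set, Cd59b or Vtn.

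The size of these SJL/J differences depended on the 3 SJL/J arrays of run 3. Without run 3 the Clu differences were 2.09 and 1.90, close to the 2.08 and 1.89 of C57BL/6 mice without that run. Serping1 went from 1.46 to 1.87, Cr1l 161648_at from 1.44 to 1.97 and Cd59a from 0.59 to 0.83. The shared Cd55 and Cd55b probe set then passed, at 1.94 (adjusted p 0.0186, limma), a probe set that was lower in left ventricle of C57BL/6. With run as a block, in which the tissue difference rests on SJL/J left ventricle array 1 and quadriceps arrays 1 and 5, 0 members and 16 of all tested probe sets were called, and Clu 95286_at read 1747.3 on the one against 1037.3 and 1342.8 on the others. The plot of 6 regulators against heart markers shows where these arrays lie.

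**Figure D3:**
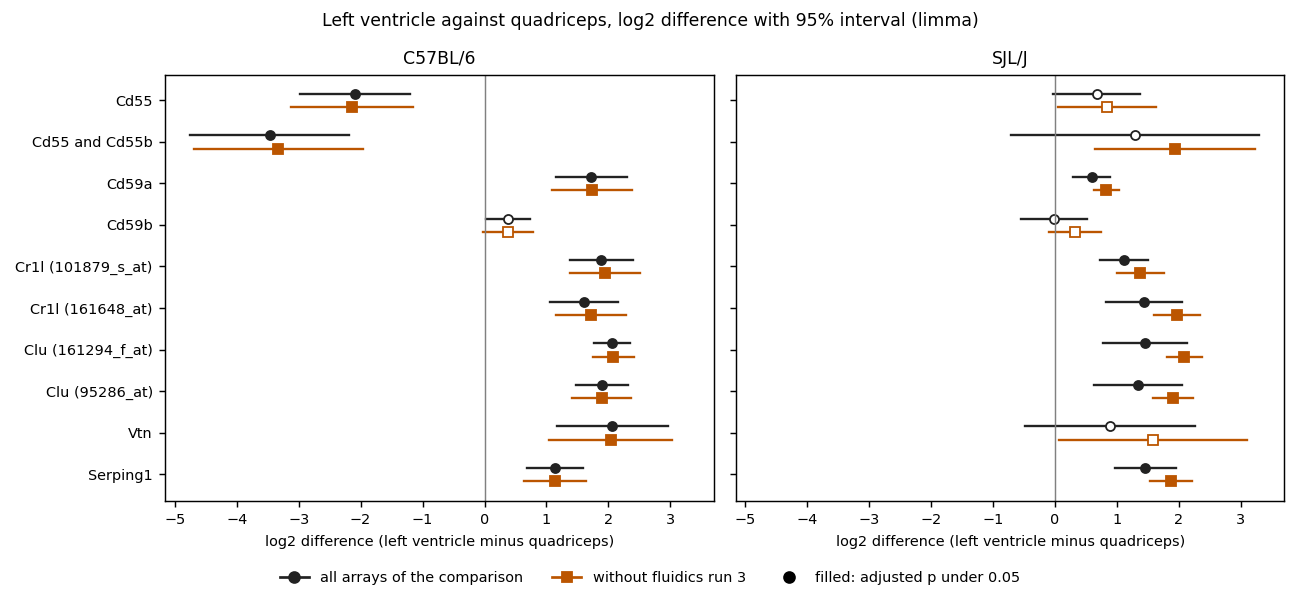
Left ventricle minus quadriceps log2 difference of each complement regulator probe set in C57BL/6 and in SJL/J mice, with 95% intervals from limma. Circles use all arrays and squares leave out fluidics run 3, with filled symbols for an adjusted p under 0.05. Cd55 lies at -2.09 in C57BL/6 and 0.67 in SJL/J, and without run 3 the SJL/J values of Clu move from 1.45 and 1.34 to 2.09 and 1.90.

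**Figure D4:**
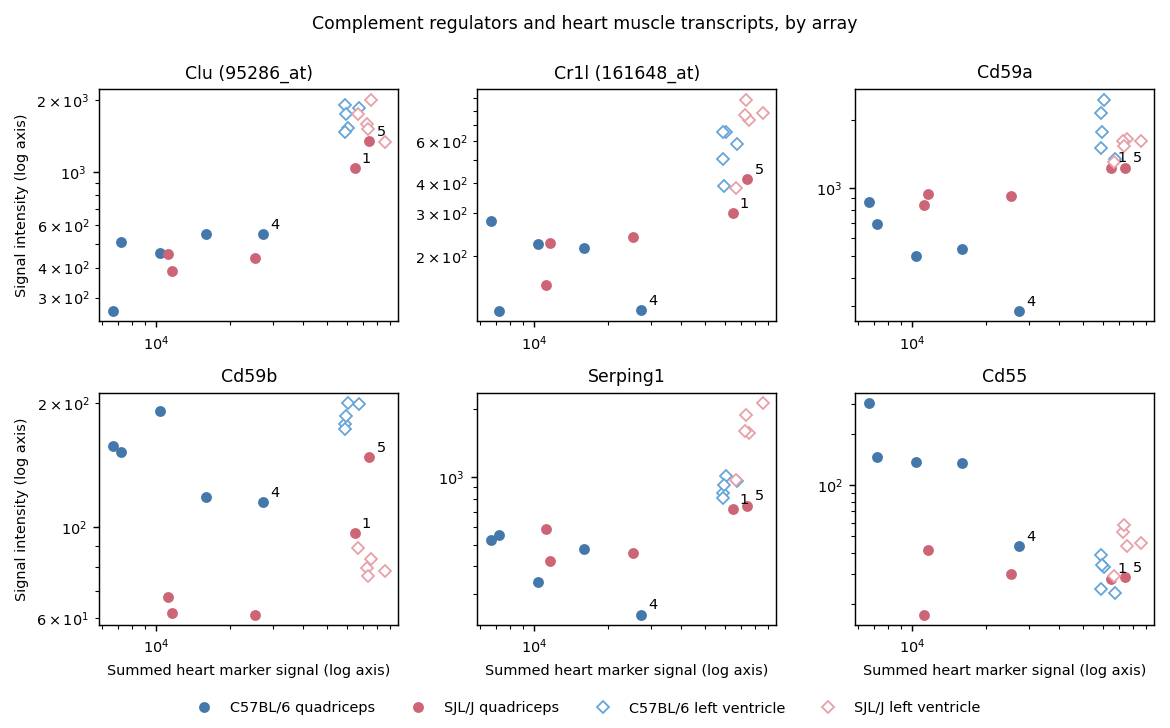
Signal of 6 regulator probe sets against the summed signal of 10 heart muscle markers on each of the 20 arrays (both axes logarithmic). Numbers mark C57BL/6 quadriceps array 4 and SJL/J quadriceps arrays 1 and 5. The latter lie at heart marker sums of 64682.1 and 74373.3, among the left ventricle arrays, and their Clu values of 1037.3 and 1342.8 lie between those of the other quadriceps arrays and most left ventricle arrays.

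Other complement genes were followed through a list of 45 components, receptors and further regulators, of which 30 had a probe set of their own and 13 passed the filter. In quadriceps, 3 of the 13 rose in SJL/J and 0 fell, against 6.12% and 5.39% of all tested probe sets. They were C1qa and C1qc, chains of the recognition protein C1q (1.72 ± 0.34, adjusted p 0.00762, and 1.01 ± 0.25, adjusted p 0.0242, limma), and Itgax, a chain of a complement receptor on myeloid cells (0.98 ± 0.24, adjusted p 0.0233, limma). The summed signal of 11 macrophage and monocyte markers moved with them, at 918.1 to 1385.2 in C57BL/6 and 2292.6 to 3602.4 in SJL/J quadriceps, and their part was not tested. With run as a block, the quadriceps difference rests on the single C57BL/6 array 4. It was then 2.92 for C1qa, 1.67 for Itgax, 1.13 for C1qc and -1.10 for C1qb. C1qc was no longer called in that fit, and C1qb went the other way from C1qa and C1qc. C1ra and C2, proteases of the classical pathway, were at 1.45 and 2.56 in that fit. Neither of the latter was called with all arrays. Without run 3 they were not called either (0.64, adjusted p 0.223, and 1.32, adjusted p 0.144, limma). In left ventricle, 2 of the 13 rose, Cd93 (0.69) and Thbd (0.37), and 2 fell, C1qc (-0.77) and C1qa (-0.69), of which 0 were called with run as a block. In that tissue 32.1% of all tested probe sets were called, so that 4 of 13 was near the background. Without run 3, 3 rose and 0 fell in quadriceps, and 3 rose and 2 fell in left ventricle. C1qb, the third chain of C1q, did not pass in either tissue without a block (-0.51 ± 0.34, adjusted p 0.359, in quadriceps and -0.32 ± 0.40, adjusted p 0.577, in left ventricle, limma).

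The genes most like each regulator over the 20 arrays were ranked by Pearson correlation of log2 signal, a description of arrays that share tissue, strain and run. For Cd55 they were Tmem126a (r = 0.88), Fut8 and Sos2 (both 0.87). Cd59a was closest to Rcn1 (0.96), Cd59b to Abcd3 (0.95), Clu to Cxcl12 (0.98) and Cr1l to Cd93 (0.96). Serping1 was closest to Zfp36l1 (0.97) and Prkar1a (0.97), with Lum, a collagen-binding proteoglycan of fibroblasts, the third (0.96). Vtn had the lowest leading value, 0.86 with Adgrg1, followed by Pgap2 (0.85) and Pdgfrb (0.85), a receptor of pericytes and other mural cells.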

How the data were processed

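The deposited values were 1 linear intensity per probe set and array, scaled by the authors, with trimmed means of 199.4 to 199.9 over the 20 arrays. How probes were summarised into probe sets, corrected for background and called present is not stated in these sources. Chip lot, wash protocol and hybridisation time were read per the file headers, and a gap over 30 minutes started a new fluidics run. Intensities below 3.1, the 5th percentile, were raised to it before taking log2. A probe set was tested if it was no control and its mean in at least 1 group exceeded the median signal of 68.8. Differences were fitted per probe set in R 4.3.3 by limma 3.58.1, using lmFit and eBayes with its trend option, on the 10 arrays of each comparison or all 20 for the interaction. P-values were adjusted by Benjamini-Hochberg over all 7121 tested probe sets and called under 0.05. Errors are standard errors unless SD is given. Gene lists and markers were read by the brightest probe set of each gene. The 5 mice per group limit the precision, and p-values weigh each difference against the spread between these arrays. That spread includes run, chip lot and marker content where these differ within a group.

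Members, lists and the alternatives were chosen with earlier results of these data known. Leaving out run 3 together with C57BL/6 quadriceps array 4 was added after the values were seen. All 7 genes were described throughout. For likeness, the brightest probe set of each gene was compared with all tested probe sets of other single genes. Pathway genes were named if called in a strain comparison. C1qb, C1ra and C2 were named after their values were seen. All 8 symbols matched a RefSeq gene table of GRCm38.p6. Promoters were held for 5 of the 7 members. The sources used here give no genome build for the array design, and gene coordinates are not printed. Fits were tested on simulated data. Python 3.11.15, pandas 2.3.3 and matplotlib 3.10.9 served for tables and figures. No 2 arrays were identical, and the main fits did not pair arrays by replicate number.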

Additional observations from a re-analysis of the deposited data

Results flagged for a closer look

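Among 40 groups of 5 arrays (10 probe sets in 4 groups), 6 held an array far from the other 4. For a single group of independent values, chance gives about 1 in 20. The probe sets were read on the same arrays, so that the 6 outlying arrays cannot be counted against that rate. Among them, 3 were SJL/J left ventricle array 1, of fluidics run 3, which was the lowest of its group for the probe set shared by Cd55 and Cd55b (3.4), for Cd59a (1302.7) and for Cr1l 161648_at (383.5). C57BL/6 quadriceps array 4, of run 5, was the lowest of its group for the shared probe set (13.0) and for Vtn (9.7). C57BL/6 quadriceps array 5 was the lowest of its group for Clu 95286_at (263.9).

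The strain difference differed between quadriceps and left ventricle by limma's interaction test for 3 probe sets. It was -2.77 on the log2 scale for Cd55, -4.76 for the probe set shared with Cd55b and 1.14 for Cd59a, as quadriceps minus left ventricle. The Cd55 call and that of the shared probe set were lost with run as a block, and the Cd59a call without run 3. With chip lot as a block, Cd55 was at -1.21 and the shared probe set at -2.64, and neither of them was called.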

How the results depend on the processing

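The calls for Cd55 and its shared probe set in quadriceps held under another offset, filters, scalings, no trend and without run 3, where each could be fitted, and were lost with run or chip lot as a block or the Gapdh ratio as a covariate. The cause was not tested. No chip lot block could be fitted for the strain comparison in left ventricle or the tissue comparison in SJL/J. The Cd59a call in quadriceps was lost with no filter, median centring, no trend and without run 3, and held in 12 of 24 alternatives in all (adjusted p 0.00294 to 0.156). Dim signal limits the shared probe set, whose values reached the floor of 3.1. Over single probe sets, 549 results kept direction and call outside the fits that left out 1 array, 18 gained and 35 lost the call, and 28 turned sign, of which Serping1 in left ventricle had passed the threshold.

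With the Gapdh ratio, 419 of all tested probe sets and 1 member were called in quadriceps, 42 and 0 in left ventricle, and 651 and 2 in the SJL/J tissue comparison. With run as a block the counts were 62 and 0 in left ventricle, 324 and 1 in the interaction, 16 and 0 in the SJL/J tissue comparison, and 2076 of all in the C57BL/6 one. All 20 arrays in 1 fit gave 1583 and 5 in quadriceps and 1312 of all in left ventricle. Without run 3, 6 members were called in left ventricle. Also without C57BL/6 quadriceps array 4, a setting chosen after seeing the data, 1489 of all were called in quadriceps and 2150 in the interaction, and in quadriceps Cd55 was at -2.59 and Cd59b at -1.27. Leaving out 1 array gave 512 (without C57BL/6 array 2) to 1238 (without C57BL/6 array 4) calls in quadriceps with 1 to 4 members, 1838 to 2654 in left ventricle with 3 to 6, 780 to 1579 in the interaction with 3 to 4, 3068 to 4001 in the C57BL/6 tissue comparison with 9 to 10, and 1862 to 2992 in the SJL/J one with 6.

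Median centring moved the median of all tested probe sets by -0.15 in quadriceps, -0.20 in the C57BL/6 tissue comparison and -0.15 in the interaction, and run as a block by -0.10 in quadriceps. Calls higher were 436 of 820 in quadriceps and 596 of 1035 in the interaction, against 280 of 889 and 379 of 1023 after median centring.

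In quadriceps, Clu 95286_at was at -0.0881 without run 3, -0.0176 also without C57BL/6 array 4 and -0.37 with run as a block. Vtn there was at 0.57 with run, 1.31 with chip lot and 0.11 with the Gapdh ratio. In left ventricle with run as a block, Cd55 was at -0.21, the shared probe set -0.0418, Cr1l 161648_at -0.0239, and Clu -0.29 and 7e-04. With the Gapdh ratio, Cr1l 161648_at was at -0.89, the shared probe set -0.77, Clu -0.63 and 0.37, and Serping1, which had passed, -0.46. In the interaction without run 3, Cr1l 161648_at was at -0.25 and Clu at -0.0055 and -0.01. Also without C57BL/6 array 4, Cr1l 161648_at was at -0.40, Cd59b -0.027 and Vtn -0.0055. With run as a block, Clu 95286_at was at -0.37 and Serping1 at 0.92, and with chip lot Serping1 was at 0.43. In the SJL/J tissue comparison, Cd59b was at 0.32 without run 3, and the shared probe set at -1.13 and Vtn at -0.0804 with run as a block. Leaving out 1 array turned 5 values near 0, with ranges of -0.0436 to 0.1378 (Clu 161294_f_at), -0.1392 to 0.0073 (Clu 95286_at) and -0.1284 to 0.0135 (Cr1l 101879_s_at) in left ventricle, -0.045 to 0.348 (Cr1l 161648_at) in the interaction and -0.12 to 0.20 (Cd59b) in the SJL/J tissue comparison.

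Deviations of same-numbered arrays correlated between -0.20 and 0.13, with an array closest to its own number in 3 of 20 cases. All 3 fell in pairs of different strains, where no mouse can be shared. Within a strain, run and marker content also differ between the arrays. The check therefore cannot show whether same-numbered quadriceps and left ventricle arrays came from 1 mouse. The main fits treated all arrays as independent. The number as a replicate block gave 659 calls in quadriceps with 3 members, and changed no count of calls by over 1.5 times.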
